A study of Mus musculus with 16 samples.

Results

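Kidney RNA of 4 Pept2 knockout male mice was compared with 1 pool of RNA from 5 wild-type kidneys, and the genes of the extracellular matrix and of cell adhesion to it were drawn from that comparison. Members were chosen by symbol: collagens, laminins, fibulins, fibrillins, fibronectin, SPARC proteins, thrombospondins, lysyl oxidases, the small proteoglycans Dcn, Bgn and Lum, matrix metalloproteinases (MMPs) and their inhibitors, ADAM and ADAMTS proteases, and integrins. Of 105 such genes with a probe that names them alone, 55 had a value in both channel orientations of every mouse on at least 1 probe (71 of 138 probes), among 6191 genes tested in all. The 50 that could not be tested include Col5a2, Col6a1, Col6a3, Lama1, Lama4, Mmp3, Mmp14, Itga5 and Itgb2, and Lum was not analysed here. Itgb1bp1 and Itgb3bp matched by symbol, although they encode proteins named for binding an integrin and not integrins themselves.

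Both groups were right kidneys of males aged 88 (± 2) days, from a Pept2 line of mixed C57BL/6 and 129Sv background whose F4 animals were bred to give knockout or wild-type litters. Pept2 is the older name of Slc15a2, the proton-coupled transporter that takes up short peptides in the proximal tubule. Each knockout mouse was hybridised against the pool on 4 two-colour spotted cDNA arrays, with the knockout RNA in channel 1 on 2 arrays and in channel 2 on 2. The wild-type animals were never measured singly, so tests against the pool hold the spread among 4 knockout mice and not that among wild-type mice, and every mouse shares the error of the pool. In RNA of a whole kidney, fewer cells of a type and less RNA per cell cannot be told apart.

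The extracellular matrix is the protein scaffold around cells. Fibrillar collagens give the interstitium its tensile strength, and a sheet of type IV collagen and laminin, the basement membrane, lies under every tubule and capillary and forms the core of the glomerular filter. Integrins, each a pair of an alpha and a beta subunit, anchor cells to both, MMPs and ADAMTS proteases cut the matrix, and the TIMP proteins inhibit the MMPs. In healthy kidney the interstitial matrix is made mainly by fibroblasts and vessel wall cells, and its accumulation is the hallmark of fibrosis.

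Values are log2 ratios of knockout mouse over pool. Slc15a2 itself was below 0 on all 16 arrays, at -2.51 ± 0.10 (SE, n = 4 mice; adjusted p = 2.17e-05, limma). The labels give neither the dyes nor the numerator, and the deposited sign of this gene switched with the channel of the knockout RNA. Its direction was set and not found: channel 1 was taken as the numerator because the targeted transcript is then lower in knockout kidney. It is the likely direction, and with channel 2 as the numerator every direction given here is exchanged. Arrays carried a value for 10134 to 18400 of 20205 probes. Array 3 of mouse 3 and array 1 of mouse 4 resembled each other (r = 0.623 across probes). No arrays of a single mouse did so as closely (highest r 0.534). This bears on the comparison between mice and on the tests against the pool, which take the mice as independent.

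No member passed an adjusted p of 0.05 against the pool (0 of 55, against 0.210% of all genes), and the lowest adjusted p of a member was 0.145 (limma). At an unadjusted p under 0.05, 10 members (18.2%) stood below the pool, where 10.0% of all genes did, and 6 (10.9%) stood above it, where 6.80% of all genes did. Values were below 0 in all 4 mice for 7 members (12.7%, against 14.3% of genes), and above 0 in all 4 for 10 (18.2%, against 11.4%). Counted by mean alone, 23 members were below 0 (41.82%, against 51.77% of genes) and 32 above. The median of the members was 0.0093 and that of all genes -0.0038. The median absolute log2 ratio was 0.0893 for members and 0.062 for all genes, and the median standard deviation between mice was 0.133 and 0.0993. Without mouse 3 the lower count was 6 of 72 members and 444 of 7285 genes. Without mouse 4 it was 5 of 55 members and 336 of 6197 genes, with 3 members and 235 genes above the pool. Both counts thus fell for all genes too.

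The members below the pool at the unadjusted threshold were Fbln5, Col3a1, Fbln1, Col4a1, Fn1, Itgb1, Sparc, Itga1, Col1a2 and Itgb3bp. Those above it were Col27a1, Lama5, Itgb3, Col8a1, Adamtsl4 and Mmp9. The means lay between -0.38 and -0.11 on the lower side and between 0.12 and 0.25 on the upper side. Members of the same kinds that did not pass lay near 0 or varied between mice, among them Col1a1 at -0.039 ± 0.074, Dcn at -0.036 ± 0.084, Bgn at 0.020 ± 0.073 and Sparcl1 at -0.19 ± 0.11.

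Among the fibrillar collagens, 5 were measured. Col3a1, the chain of type III collagen in vessel walls and interstitium, stood at -0.37, -0.022, -0.53 and -0.36 in mice 1 to 4. All mice were below 0, mouse 2 barely so, and the mean was -0.32 ± 0.077 (SE, n = 4), a ratio 1.25-fold lower than the pool (adjusted p = 0.148, limma). It had a value on 12 of 16 arrays and was below 0 on 11 of them. Col1a2, the alpha 2 chain of type I collagen, stood at -0.20, 0.097, -0.37 and -0.23, so that mouse 2 alone was above the pool. Its mean was -0.17 ± 0.072 (adjusted p = 0.275, limma), and its 3 probes gave means between -0.23 and -0.12. Col1a1, the partner chain of Col1a2 in the same triple helix, stood at -0.17, 0.21, -0.23 and 0.039, with a mean of -0.039 ± 0.074. Mice 1 and 3 were low and mouse 2 was high for both chains, while mouse 4 was low for Col1a2 only.

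Col27a1, a fibrillar collagen known from cartilage, lay on the other side. Its values were 0.45, 0.31, 0.19 and 0.046, all above 0, with a mean of 0.25 ± 0.066 (adjusted p = 0.163, limma), and 13 of 15 arrays were above 0. Col2a1, the main collagen of cartilage, stood at 0.027, 0.33, -0.031 and 0.096 with a mean of 0.10 ± 0.063. Its arrays ran from -0.46 to 1.43, a range far wider than the distance of its mean from 0.

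The region before a gene's start is shown for the interstitial collagens Col3a1 and Col1a2, for Fbln5, the member with the lowest mean, for Timp1, the one with the lowest adjusted p between mice, and for Col4a1 and Col4a2, which start back to back. Each window holds 300 bases from before to 50 bases past the start site, from RefSeq on build GRCm38.p6, printed on the gene's strand. Capitals mark matches on either strand to the core promoter box TATAAA, the factor NF-Y's box CCAAT, the factor SP1's box GGGCGG (called the GC box), the AP-1 motif TGANTCA, or the piece GTCTAG of a motif known for SMAD proteins. These motifs were searched with overlaps allowed.
Col3a1: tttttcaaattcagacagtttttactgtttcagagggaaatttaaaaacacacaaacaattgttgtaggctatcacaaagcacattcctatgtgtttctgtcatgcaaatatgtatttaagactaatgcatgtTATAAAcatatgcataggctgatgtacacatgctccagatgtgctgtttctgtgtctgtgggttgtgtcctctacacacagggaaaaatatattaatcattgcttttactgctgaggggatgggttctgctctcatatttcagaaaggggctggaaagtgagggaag
Col1a2: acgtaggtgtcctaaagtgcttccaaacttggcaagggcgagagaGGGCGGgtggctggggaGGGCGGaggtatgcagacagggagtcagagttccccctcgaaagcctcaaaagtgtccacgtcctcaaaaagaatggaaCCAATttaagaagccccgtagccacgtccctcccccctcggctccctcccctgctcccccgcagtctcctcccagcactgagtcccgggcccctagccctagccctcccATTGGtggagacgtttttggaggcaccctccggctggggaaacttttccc
Fbln5: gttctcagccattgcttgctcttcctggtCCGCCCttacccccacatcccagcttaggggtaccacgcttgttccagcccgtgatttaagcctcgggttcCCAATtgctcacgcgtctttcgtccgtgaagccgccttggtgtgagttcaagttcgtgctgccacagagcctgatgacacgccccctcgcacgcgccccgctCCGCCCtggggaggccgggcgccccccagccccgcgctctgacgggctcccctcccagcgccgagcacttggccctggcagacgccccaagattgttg
Timp1: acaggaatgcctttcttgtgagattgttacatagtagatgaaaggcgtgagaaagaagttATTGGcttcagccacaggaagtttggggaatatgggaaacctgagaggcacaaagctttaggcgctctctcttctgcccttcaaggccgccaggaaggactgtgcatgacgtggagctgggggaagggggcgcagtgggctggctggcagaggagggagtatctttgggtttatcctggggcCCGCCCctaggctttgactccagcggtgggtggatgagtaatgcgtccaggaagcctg
Col4a1: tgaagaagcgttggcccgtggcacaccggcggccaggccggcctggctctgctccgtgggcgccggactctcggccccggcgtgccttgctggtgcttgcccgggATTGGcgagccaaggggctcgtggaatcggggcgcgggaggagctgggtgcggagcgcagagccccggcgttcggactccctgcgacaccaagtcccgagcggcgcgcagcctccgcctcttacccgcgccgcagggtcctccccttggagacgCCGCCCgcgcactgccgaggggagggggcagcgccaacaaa
Col4a2: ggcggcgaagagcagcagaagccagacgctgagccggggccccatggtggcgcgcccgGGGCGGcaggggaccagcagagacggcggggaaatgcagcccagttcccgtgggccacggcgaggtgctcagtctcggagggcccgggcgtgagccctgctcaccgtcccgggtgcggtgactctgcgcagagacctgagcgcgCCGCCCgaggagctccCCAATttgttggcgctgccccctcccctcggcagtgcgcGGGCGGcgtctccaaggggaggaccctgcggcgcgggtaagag

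These windows lie at chr1:45311288-45311587, plus strand (Col3a1), chr6:4505368-4505667, plus strand (Col1a2), chr12:101819070-101819369, minus strand (Fbln5, the first of 2 windows listed for it), chrX:20869916-20870215, plus strand (Timp1), chr8:11312777-11313076, minus strand (Col4a1) and chr8:11312555-11312854, plus strand (Col4a2). The last pair shares 78 bases. Col3a1 holds a TATA box whose first base is at -117 from the start and no other match. Col1a2 holds GC boxes at -205 and -188 and a CCAAT box at -109, with another on the opposite strand at the start site. Fbln5 holds GC boxes on the opposite strand at -221 and -48 and a CCAAT box at -150, and Timp1 a CCAAT box at -190 and a GC box at -8, both on the opposite strand. Col4a1 holds a CCAAT box at -145 and a GC box at 10, both on the opposite strand, and Col4a2 a CCAAT box at -32 and GC boxes at -192, -48 (opposite strand) and 8. Of the 55 measured members, 34 had a window in the table, 39 windows in all. The GC box was in 64.1% of them against 35.7% of 32851 windows of all genes, beside a median GC content of 63.3% against 52.7%. The TATA box was in 10.3% against 13.6%, the CCAAT box in 28.2% against 37.4%, the AP-1 motif in 2.56% against 7.81%, and the SMAD piece in 15.4% against 8.37%. A match describes the letters of a window and is neither a bound site nor a cause.

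The basement membrane genes lay on both sides of 0. Col4a1, the alpha 1 chain of type IV collagen, stood at -0.33, -0.12, -0.099 and -0.16, with a mean of -0.18 ± 0.053 (adjusted p = 0.178, limma). It was below 0 in every mouse and on 15 of 16 arrays, and both probes were low, at -0.20 and -0.16. Its partner chain Col4a2 stood at -0.26, -0.15, 0.044 and 0.017, below 0 in mice 1 and 2 only, with a mean of -0.086 ± 0.060. Mouse 1 was the lowest mouse for both chains.

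Lama5, the alpha chain of laminin-511 and laminin-521 in the mature glomerular basement membrane, was the basement membrane gene above the pool. Its values were 0.094, 0.093, 0.31 and 0.38 and its mean 0.22 ± 0.061 (adjusted p = 0.172, limma), with 13 of 16 arrays above 0. The other laminin chains stayed closer to 0. Lamb2, the beta chain of laminin-521, stood at -0.081, 0.11, 0.038 and 0.069, with a mean of 0.035 ± 0.049. Lamc1, the gamma chain shared by most laminins, had a mean of 0.0066 ± 0.045 from probes of opposite sign (-0.0048 and 0.018). Col18a1, whose C-terminal fragment is endostatin, likewise had 1 probe below 0 (-0.043) and 1 above (0.050).

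All 5 other collagens had means above 0. Col8a1, a short-chain collagen of vessel walls, stood at 0.19, -0.049, 0.29 and 0.25. Its mean was 0.17 ± 0.062 (adjusted p = 0.229, limma), and mouse 2 was the only one below 0. Its highest arrays, at 0.59 in mouse 3 and 0.69 in mouse 4, were the pair that resembled each other across mice. Col12a1 and Col14a1, which decorate the surface of collagen fibrils, had means of 0.089 ± 0.051 and 0.031 ± 0.053. Col13a1, a transmembrane collagen, had a mean of 0.092 ± 0.060, and Col22a1, a collagen of tissue junctions, one of 0.058 ± 0.055. None of these 4 passed the unadjusted threshold.

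**Figure D1:**
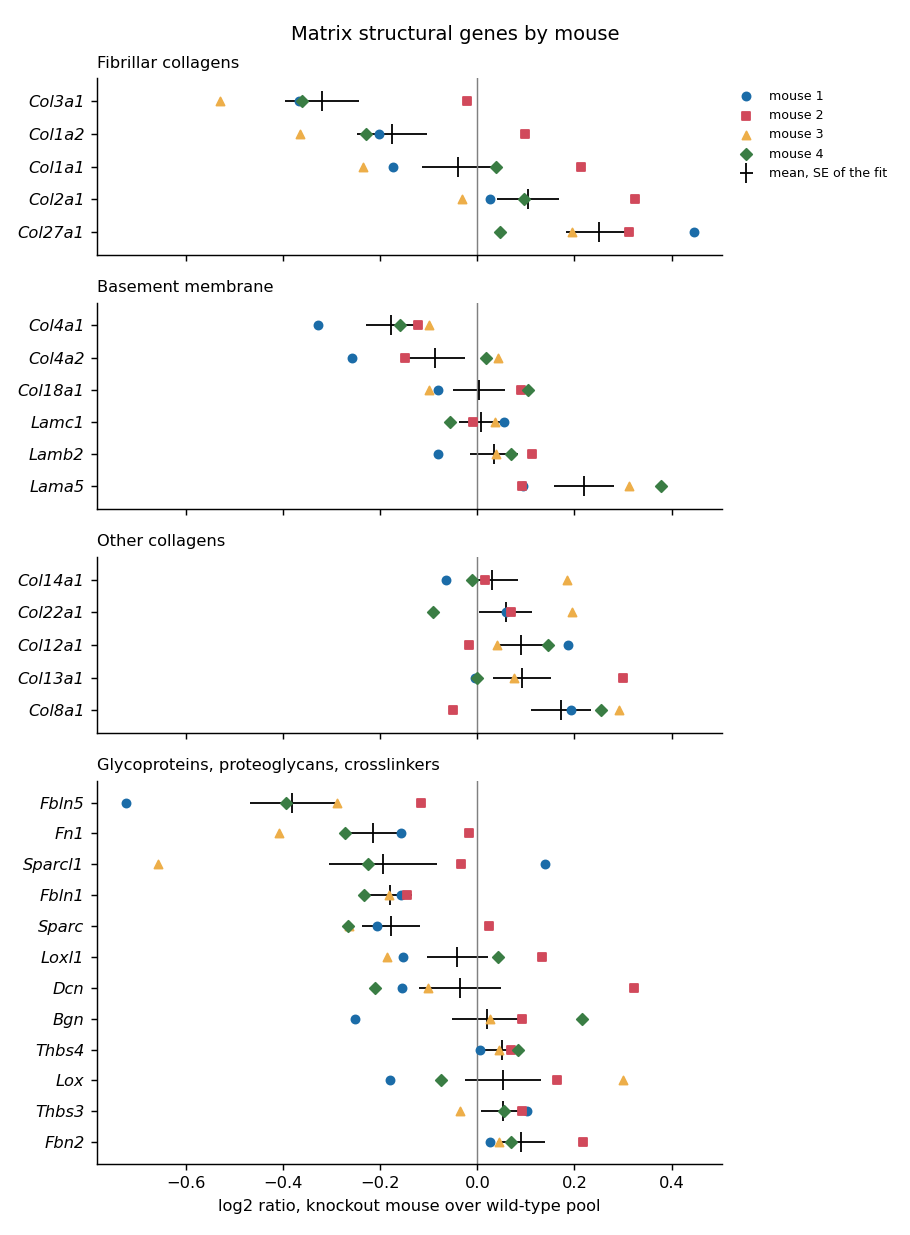
Log2 ratio of each knockout mouse over the wild-type pool (horizontal axis) for the 28 collagens, laminins and other structural members, by role. Coloured symbols are mice, and the black bar is the mean with the standard error of the fit. Fbln5 and Col3a1 lie farthest to the left, at means of -0.38 and -0.32, and the red square of mouse 2 is the one closest to 0 for both.

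Of 12 glycoproteins, proteoglycans and crosslinking enzymes, 4 stood below the pool at the unadjusted threshold and none above it. Fbln5, which guides elastic fibre assembly, had the lowest mean of all members. Its values were -0.72, -0.12, -0.29 and -0.39, and its mean of -0.38 ± 0.087 was 1.3-fold lower than the pool (adjusted p = 0.145, limma). It was below 0 on 15 of 16 arrays. Fbln1, a fibulin of basement membranes and elastic fibres, was the most even of these 4: -0.16, -0.14, -0.18 and -0.23, with a mean of -0.18 ± 0.044 (adjusted p = 0.148, limma). That evenness holds for the mouse means, since its single arrays ran from -0.79 to 0.18.

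Fn1, the fibronectin gene, stood at -0.16, -0.018, -0.41 and -0.27, with a mean of -0.21 ± 0.065 (adjusted p = 0.183, limma), and was below 0 on 14 of 15 arrays. Sparc, which binds collagen and takes part in its assembly, stood at -0.21, 0.024, -0.26 and -0.27, with a mean of -0.18 ± 0.059 (adjusted p = 0.196, limma). Its 3 probes all had means below 0, from -0.24 to -0.089. For both genes mouse 2 was the one nearest to 0 in the mean of the probes. The 2 probes of Fn1 differed in mouse 2, at -0.17 and 0.13. On the first of them mouse 1 was nearest to 0, at -0.088.

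Sparcl1, a relative of Sparc, had the widest spread of the members between mice. It stood at 0.14, -0.033, -0.66 and -0.23, so that mouse 1 was above the pool and mouse 3 far below, and its standard deviation over mice was 0.34. Dcn (decorin), a proteoglycan that coats collagen fibrils, stood at -0.16, 0.32, -0.10 and -0.21, above 0 in mouse 2 alone. Bgn (biglycan), its close relative, stood at -0.25, 0.092, 0.026 and 0.21, and here mouse 1 alone was below 0. The crosslinking enzymes Lox and Loxl1 had means of 0.053 ± 0.078 and -0.041 ± 0.063, the fibrillin Fbn2 one of 0.090 ± 0.050, and the thrombospondins Thbs3 and Thbs4 0.053 ± 0.047 and 0.051 ± 0.044. All of these lay within about 2 standard errors of 0.

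The MMPs were thinly covered, with 3 measured. Mmp9 (gelatinase B) stood at 0.19, 0.081, 0.084 and 0.12, above 0 in all 4 mice, with a mean of 0.12 ± 0.045 (adjusted p = 0.248, limma). That direction depends on which probes enter. With probes allowed that had any value for every mouse the mean was -0.087, and with blanks judged by gene instead of by probe it was -0.046. Mmp2 (gelatinase A) stood at -0.065, -0.014, -0.084 and 0.18 and Mmp23 at -0.014, 0.10, -0.12 and -0.060, and both means were within 1 standard error of 0.

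All 4 MMP inhibitors were measured. Timp1 stood at 0.046, 0.029, -0.40 and -0.32: mice 1 and 2 were just above 0 and mice 3 and 4 well below it, with a mean of -0.16 ± 0.081. Timp3, the inhibitor held in the matrix, stood at 0.033, -0.047, -0.28 and -0.15 with a mean of -0.11 ± 0.059, and its 3 probes all had means below 0, from -0.15 to -0.066. Its sign changed with the orientation, at 0.019 with the knockout RNA in channel 1 and -0.24 with it in channel 2. Timp2 had a mean of -0.033 ± 0.054 and Timp4 one of 0.051 ± 0.045. Against the pool no inhibitor passed even the unadjusted threshold.

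Of 9 ADAM and ADAMTS genes, 7 had means above 0 and 1 passed the unadjusted threshold. Adamtsl4, an ADAMTS-like protein without protease activity that binds fibrillin, stood at 0.14, 0.018, 0.53 and 0.17, with a mean of 0.21 ± 0.079 (adjusted p = 0.236, limma). Mouse 3 carried much of that mean, and single arrays ran from -0.25 to 1.495. The 1.495 was array 3 of mouse 3, which is of the pair that resembled each other across mice. The other arrays of mouse 3 were at 0.51, 0.21 and -0.085. Adamts1, a protease that cuts proteoglycans, had a mean of 0.0013 ± 0.098, which hides opposite values in the mice: 0.28, 0.18, -0.38 and -0.073. Adam15 had a mean of -0.11 ± 0.056, and Adam10, the sheddase of many membrane proteins, one of -0.038 ± 0.059. Adam3 and Adam32, known from testis, stood at 0.080 ± 0.059 and 0.058 ± 0.044, and the remaining Adamtsl2, Adam23 and Adamts10 had means between 0.0093 and 0.047.

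Among the integrins, Itgb1, the beta 1 chain that most matrix-binding integrins share, stood at -0.16, 0.0075, -0.26 and -0.30. Mice 1, 3 and 4 were below 0 and mouse 2 at it, with a mean of -0.18 ± 0.059 (adjusted p = 0.196, limma). Each of its 5 probes had a mean below 0, from -0.25 to -0.11, and 14 of 16 arrays were below 0. Itga1, its partner in the collagen receptor, stood at -0.19, -0.049, -0.15 and -0.090, with a mean of -0.12 ± 0.047 (adjusted p = 0.258, limma). On arrays with the knockout RNA in channel 1 the mean of Itga1 was -0.0084, and on those with it in channel 2 it was -0.23.

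Itgb3, the beta chain of the vitronectin receptor, lay above 0 at 0.14, 0.14, 0.17 and 0.096, with a mean of 0.14 ± 0.044 (adjusted p = 0.186, limma). Those are mouse means, and its single arrays ran from -0.16 to 0.50, with 12 of 14 above 0. Other chains with means above 0 were Itga7 at 0.11 ± 0.051, Itgb5 at 0.11 ± 0.069, Itgb4 at 0.093 ± 0.049 and Itga3 at 0.033 ± 0.044. Itgb4 belongs to the hemidesmosome receptor, and Itga3 joins Itgb1 as the laminin receptor of podocytes. Itga6, another laminin receptor chain, stood at 0.038, 0.076, -0.35 and -0.031, where mouse 3 alone lay far from 0. Itgb2l, the single measured chain of the leukocyte type, had a mean of 0.018 ± 0.060. Itgb3bp and Itgb1bp1 had means of -0.11 ± 0.045 and -0.093 ± 0.050.

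**Figure D2:**
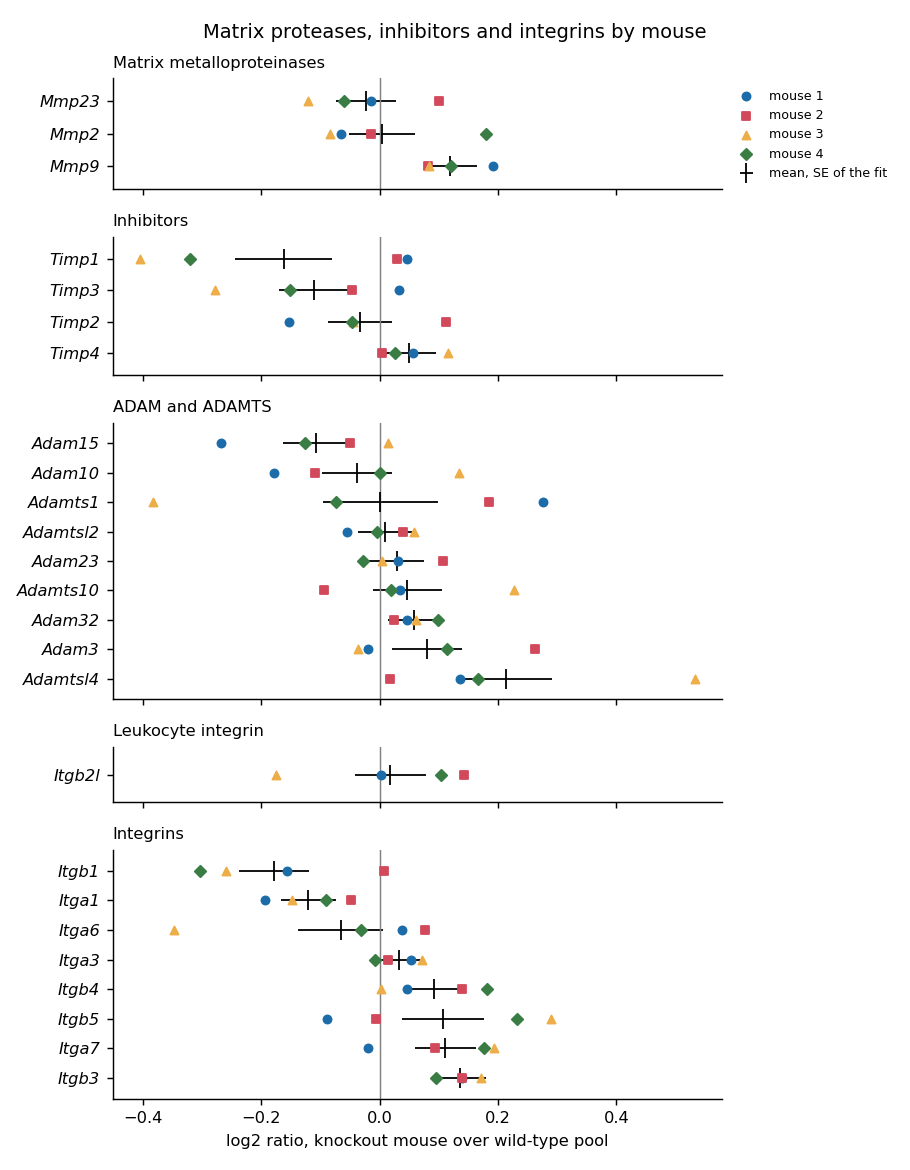
Log2 ratio of each knockout mouse over the wild-type pool (horizontal axis) for the 25 measured proteases, inhibitors and integrin chains. Symbols are mice, and the black bar is the mean with the standard error of the fit. Timp1 shows mice 3 and 4 at -0.40 and -0.32 apart from mice 1 and 2, and Itgb3 shows all mice between 0.096 and 0.17.

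The knockout mice differed from each other. In limma's moderated F test over the 16 arrays with a dye term, 3 members passed an adjusted p of 0.05 (5.45%, against 2.67% of all genes), and 14 passed unadjusted (25.45%, against 14.23%). The pool cancels from this comparison, and arrays measure technical spread, so it tells these 4 animals apart and says nothing of genotype. Timp1 had the lowest adjusted p among members (0.00866). In mouse 1 its arrays lay between -0.0043 and 0.11 and in mouse 2 between -0.029 and 0.12, whereas in mouse 3 they lay between -0.53 and -0.25 and in mouse 4 between -0.42 and -0.10, with no overlap between the pairs. Fbln5 and Col1a1 followed with the same adjusted p (0.0404). For Fbln5 all arrays of mouse 1 lay between -0.79 and -0.60, below all arrays of mouse 2, which lay between -0.17 and -0.060. For Col1a1 the arrays of mouse 2 lay between 0.14 and 0.33, above those of mouse 3, which lay between -0.43 and 0.024. Without the array pair that resembled each other across mice, the adjusted p was 0.0273 for Timp1, 0.0194 for Fbln5 and 0.104 for Col1a1. Leaving out mouse 1 or mouse 2 left 0 members past the threshold, leaving out mouse 3 left Fbln5 alone (adjusted p = 0.0135), and leaving out mouse 4 gave 4, these 3 and Dcn. Over all 6191 genes the calls numbered 165 with every mouse and 45, 76, 64 and 137 without mice 1, 2, 3 and 4.

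**Figure D3:**
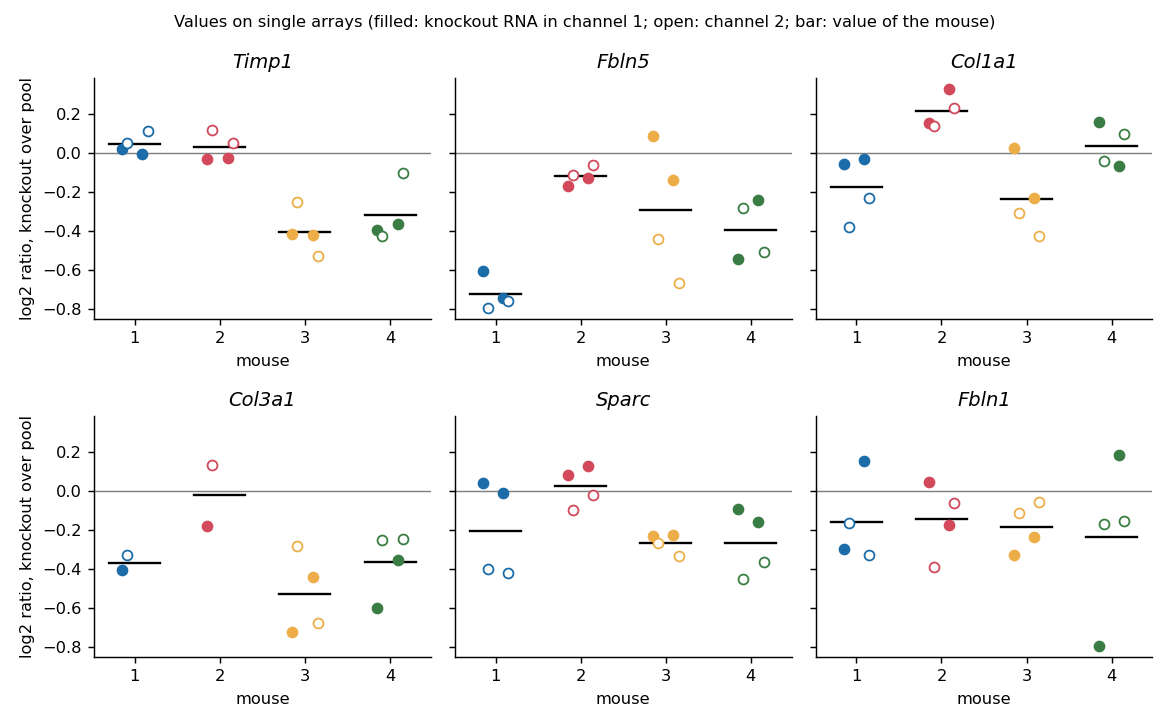
Log2 ratio on each single array (vertical axis) by mouse (horizontal axis) for 6 members. Filled points have the knockout RNA in channel 1, open points in channel 2, and the bar is the value of the mouse. Timp1 separates mice 1 and 2 from mice 3 and 4, and Fbln1 has similar bars in all mice with 1 array of mouse 4 at -0.79.

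Mouse 2 held the highest of the 4 values for 23 of 55 members (41.8%), and for 28.1% of all genes. Only 18 members were below 0 in mouse 2 (32.7%, against 49.9% of genes), compared with 30 in mouse 1, 27 in mouse 3 and 28 in mouse 4. For 9 of the 10 members below the pool at the unadjusted threshold, mouse 2 was the mouse closest to 0. The share among all genes below the pool at that threshold was not counted. The spread of probe values on an array (scaled median absolute deviation) also differed. It ran from 0.166 to 0.189 in mouse 2 and from 0.245 to 0.346 in mouse 3. In mouse 1 it ran from 0.147 to 0.224 and in mouse 4 from 0.131 to 0.279. The part of this spread was not tested. On the first probe of Fn1 mouse 1 was closest to 0 instead, as given above. So it was on the second probe of Itgb1, at -0.021 in mouse 1 and 0.029 in mouse 2. The median of the 10 was -0.0305 in mouse 2 against -0.198, -0.262 and -0.249 in mice 1, 3 and 4. For the 6 members above the pool the medians were 0.165, 0.0871, 0.243 and 0.144 in mice 1 to 4. These members were chosen on the mean of the same values, so the medians describe them and test nothing.

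Some members read differently in the 2 channel orientations. No gene passed the adjusted threshold for a difference between orientations (0 of 6191, or 0.00%; 1208 genes, 19.51%, at an unadjusted p under 0.05, limma), and 13 members (23.64%) passed it unadjusted. Col13a1 stood at -0.26 with the knockout RNA in channel 1 and at 0.44 in channel 2. Mmp2 stood at -0.18 and 0.18, Itgb1bp1 at -0.33 and 0.14, and Adam3 at -0.11 and 0.27. The mean of such a gene is an average of opposite readings. The sign differed between orientations in 21 members (38.18%) and in 46.58% of genes. All 10 members below and all 6 above the pool at the unadjusted threshold had the same sign in both, which follows largely from their choice by the mean of the same orientations. Sparc, at -0.062 and -0.29, Col1a2, at -0.085 and -0.27, and Itga1 leaned on the arrays with the knockout RNA in channel 2. So did Col8a1, at 0.098 and 0.25, and Mmp9, at 0.063 and 0.18, among the higher members. Col3a1, at -0.41 and -0.23, and Lama5, at 0.28 and 0.16, leaned on those with it in channel 1.

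**Figure D4:**
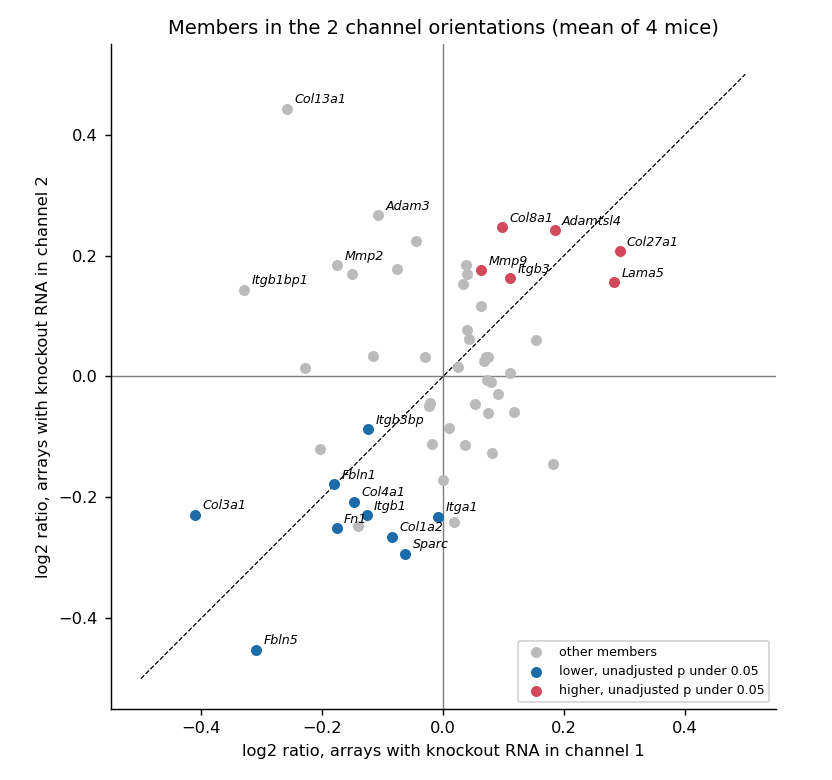
Mean log2 ratio over 4 mice on arrays with the knockout RNA in channel 1 (horizontal axis) and in channel 2 (vertical axis), 1 point per member, with the dashed line of equal values. Blue and red points are the 10 lower and 6 higher members at an unadjusted p under 0.05, which lie in the lower left and upper right, and Col13a1 lies in the upper left at -0.26 and 0.44.

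Members without blank cells were more often below 0 than those with blanks, as was so for all genes. Of the 21 members with a value on all 16 arrays, 12 were below 0 (median -0.039), and of the 34 with blanks, 11 were (median 0.040). Among all genes 56.33% of those without blanks were below 0 and 47.93% of those with blanks. Of the lower members 7 of 10 had no blank, and of the higher members 1 of 6, Lama5. Blanks are counted here by gene, so that a blank of 1 probe can be filled by another. Col4a1 is among the 7, although its probes had values on 12 and 15 arrays. Some probes of Col1a2, Itgb1 and Sparc also had blanks. The share without blanks among all genes past that threshold was not counted. The part of the blanks in these directions was not tested.

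Related genes outside the member list were read from the same fit, beside the shares of all genes. Of all genes 51.77% had means below 0. At the unadjusted threshold 10.0% of all genes passed lower and 6.80% higher. Of 12 other matrix proteins 11 had means below 0, and 3 passed the unadjusted threshold, all lower: Tinagl1, a basement membrane protein, at -0.21 ± 0.056, Mgp, the inhibitor of vessel wall calcification, at -0.20 ± 0.080, and Prelp, a small proteoglycan, at -0.14 ± 0.048. The median of these 12 was -0.022 with the knockout RNA in channel 1 and -0.11 with it in channel 2. Mgp also differed between mice (adjusted p = 0.0249, limma F test), at -0.43, 0.11, -0.29 and -0.18, with mouse 2 alone above 0. Of 12 genes of collagen synthesis 9 were below 0 and 1 passed unadjusted. That was Serpinh1, the collagen chaperone HSP47, at -0.081, -0.28, -0.65 and -0.28, with a mean of -0.32 ± 0.083 (adjusted p = 0.157, limma).

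Of 10 genes of TGF-beta signalling and the plasminogen system, 5 were below 0 and 5 above. Ccn2 (CTGF), a target of TGF-beta that promotes matrix production, stood at -0.15, -0.060, -0.46 and -0.54, with a mean of -0.30 ± 0.081 (adjusted p = 0.167, limma), and differed between mice (adjusted p = 0.00884, limma F test). Mice 3 and 4 were its low mice, as they were for Timp1. Bmp7, a TGF-beta family ligand of tubule cells, had a mean of 0.13 ± 0.050. Of 17 focal adhesion genes and other matrix receptors 9 were below 0, and 3 passed unadjusted, all lower, where 10.0% of all genes passed lower. They were Fermt3 at -0.23 ± 0.058, Cd47 at -0.15 ± 0.046 and Sdc2 at -0.10 ± 0.043. None of these 4 lists held a gene past the adjusted threshold against the pool.

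Markers of the cells that make matrix were read beside the 51.77% of all genes with means below 0. At the unadjusted threshold 10.0% of all genes passed lower and 6.80% higher. Of 9 fibroblast and smooth muscle markers 6 were below 0, and 3 passed unadjusted, all lower: Mylk at -0.29 ± 0.069, Rgs5, a pericyte gene, at -0.19 ± 0.069, and Vim at -0.12 ± 0.048. The 3 above 0 were Smtn at 0.062 ± 0.052, Acta2 at 0.058 ± 0.058 and Des at 0.0081 ± 0.046. Of 7 endothelial markers 6 were below 0, with Esam at -0.19 ± 0.058 and Ehd3 at -0.17 ± 0.053 past the unadjusted threshold. With the knockout RNA in channel 1 and in channel 2 the endothelial medians were -0.049 and -0.20. Those of the fibroblast and smooth muscle markers were -0.064 and -0.062. Eng is in both the endothelial list and that of TGF-beta signalling. Of 9 leukocyte markers 4 were below 0, and Ptprc (CD45) stood above at 0.15 ± 0.062. The medians in mice 1 to 4 were -0.181, -0.0546, -0.0497 and -0.0628 for the fibroblast and smooth muscle markers and -0.0232, -0.128, -0.132 and -0.016 for the endothelial ones. The part of the cell makeup in the members' values was not tested. Ratios to a pool give no level of a marker, so whether the tissue holds these cells cannot be read from them.

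Markers of other kidney cells and of neighbouring tissue were also read, beside the same shares of all genes. Of 9 proximal tubule markers 5 were above 0, and Slc22a8 (OAT3) was the one gene of all these lists past the adjusted threshold, at 0.48 ± 0.054 (adjusted p = 0.0149, limma), with Miox at 0.16 ± 0.052. The median of these 9 changed sign with the orientation. It was 0.12 with the knockout RNA in channel 1 and -0.055 with it in channel 2. All 5 collecting duct markers had means above 0, with Aqp2 at 0.27 ± 0.060, and 2 of them differed between mice. Foxi1, a transcription factor of intercalated cells, stood at 0.41, 0.29, -0.40 and -0.21 (adjusted p = 0.000711, limma F test), and the keratin gene Krt18 at 0.19, -0.16, 0.31 and 0.20 (adjusted p = 0.0292, limma F test). Both podocyte markers were below 0, with Podxl at -0.19 ± 0.055. Both markers of the loop of Henle and distal tubule were below 0, Ppp1r1a at -0.20 ± 0.058 and Umod, the uromodulin gene, at -0.0046 ± 0.094. Umod differed between mice (adjusted p = 0.0116, limma F test), at -0.14, -0.33, 0.19 and 0.27. Like Timp1, Foxi1 was above 0 in mice 1 and 2 and below 0 in mice 3 and 4, and Umod was the reverse. The part of the nephron makeup in the ratio of Timp1 was not tested. All 3 adipose markers were below 0, with Lpl at -0.23 ± 0.047 and Fabp4, which differed between mice (adjusted p = 0.0103, limma F test), at -0.11, 0.34, 0.020 and -0.47, and the adrenal marker Star had a mean of 0.025 ± 0.074. Svs5, a seminal vesicle gene, stood at 0.21, -0.092, 4.93 and 1.09 (adjusted p = 3.23e-06, limma F test), so that mouse 3 and, less so, mouse 4 were far above the pool. Those are also the low mice of Timp1, and the part of such tissue in that ratio was not tested.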

How the data were processed

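Per the labels, total RNA was labelled with Cy3 or Cy5 by an indirect method, a GenePix 4000A scanner and GenePix Pro 3.0 gave the spot values, and the authors subtracted background and set the median ratio of each array to 1. What was deposited is 1 log2 ratio per probe and array. The base was read from the values: 46.5% of 720 distances between repeated values matched log2 of a simple fraction within 2e-06, and 0% matched natural or decimal logarithms. No source used here gives the filter behind blank cells, and no intensities were at hand to set one.

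Each array was centred on its median and turned to knockout over wild type. A probe entered if every mouse had a value in both orientations (10804 of 20205 probes). Arrays were averaged within an orientation, orientations within a mouse, and probes naming a single gene within that gene (11723 probes had 1 symbol, 806 several and 7676 none; 11590 were matched by gene identifier to RefSeq, build GRCm38.p6, which changed 0 symbols). The 12 probes that name a member among several genes were not used. Arrays of one mouse are technical replicates, so n is 4 mice, and their number limits the precision (median SE of a member 0.058). Tests were two-sided in limma 3.58.1 (R 4.3.3, lmFit and eBayes), adjusted by Benjamini-Hochberg over all 6191 genes, and were checked on simulated data. The simulated data held no shared error of the pool and no arrays alike across mice. For the F test they held no spread between mice beyond the shifts put in. The check therefore does not cover those limits. SE is that of the moderated fit.

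The members and lists were chosen with earlier results of these data known. Named were Slc15a2, members past an adjusted threshold, up to 4 members of each role with the smallest p and 2 with the largest spread between mice, all members of roles with 5 or fewer, those whose probes differ in sign, and up to 3 genes of each other list with the smallest p, of which those past the unadjusted threshold are given, and Star and Svs5. The other measured members, the list genes that differed between mice, and Smtn, Acta2 and Des were named after their values were seen. Alternatives covered centring, the filter on blanks, the summary of arrays and probes, single orientations, array pairs, left-out mice and a random mouse block. A filter on blanks by gene, and leaving out the pair of arrays that resembled each other, were chosen after seeing the data.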

Additional observations from a re-analysis of the deposited data

How the results depend on the processing

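No member passed the adjusted threshold against the pool under any alternative but one. With all 16 arrays in the fit and the mouse as a random block (correlation 0.014), 8 of 55 did, among 467 genes: Col27a1, Col3a1, Col4a1, Fbln5, Fn1, Itgb1, Lama5 and Sparc. That fit takes most of its degrees of freedom from technical arrays. Slc15a2 stayed between -2.78 and -2.25. The following counts are at an unadjusted p under 0.05. With only probes valued on all 16 arrays, 4 of 20 members (424 of 2681 genes) stood below the pool. On arrays 3 and 4 it was 4 of 26 (351 of 3576 genes). Both settings hold fewer members. With a mouse left out the count below ran from 5 of 55 (336 of 6197 genes) to 13 of 57 (696 of 6490 genes). The count above the pool was 1 of 20 (213 genes) and 2 of 26 (204 genes) in the first 2 settings. With the knockout RNA in channel 2 only it was 11 of 64 (507 of 6672 genes). With a mouse left out it ran from 3 of 55 (235 of 6197 genes) to 6 of 57 (466 of 6490 genes) and 6 of 62 (445 of 6551 genes). Mmp9 reversed to -0.087 and -0.046 under 2 filters on blanks, as given above. Between mice, 1 member (Timp1) passed without the dye term, 4 with scale normalization, 2 with blanks judged by gene and 0 to 4 with a mouse left out. With the median of each mouse's arrays, role medians moved to 0.11 (ADAM and ADAMTS, mouse 3), 0.17 (leukocyte integrin, mouse 3), -0.21 (genes matched by symbol, mouse 3), 0.085 (MMPs, mouse 1), and 0.10 and 0.027 (other integrins, mice 3 and 4); the cause was not tested. Of the values of named members under the alternatives, 563 kept direction and side of the threshold, 45 of members outside the unadjusted threshold changed sign, 8 passed the threshold (the block) and 2 reversed (Mmp9). No paired analysis was possible because the pool has no replicates to pair with the mice. Signal over background is unknown.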

Other observations

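With the blanks judged by gene instead of by probe, 56 members of 6274 genes could be tested. The added member was Itgal, the alpha chain of the leukocyte integrin LFA-1. It stood at 0.018, -0.043, 0.43 and 0.17 in mice 1 to 4, with a mean of 0.14 ± 0.075 (SE, n = 4; adjusted p = 0.37, limma).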
